A study of Mus musculus with 16 samples.

Results

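The 10 genes described here are 6 that identify the endothelium, Pecam1, Cdh5, Nos3, Vwf, Tie1 and Tek, and 4 that it displays to leukocytes, Vcam1, Icam1, Sele and Selp. They were found by gene symbol, 10 rows of the 54532 genes in the deposited table. They were followed across the whole aortas of 16 male C57BL/6J mice, 4 in each of 4 groups, with 1 RNA library per mouse. The Sham mice had similar operations in which no kidney was ligated or removed, and ate 2% phosphorus with 2.5% protein. The other 3 groups had a 5/6 nephrectomy (5/6 Nx, ligation of the poles of the left kidney and then removal of the right kidney). It was done in 2 steps from 12 weeks of age, as a model of chronic kidney disease. The mice were put on their diets 2 weeks later. Those named 5/6 Nx-HPi-Lp ate what the Sham mice ate, 2% phosphorus and 2.5% protein. Those named 5/6 Nx-HPi-Hp ate 2% phosphorus with more protein, 18%, and those named 5/6 Nx-LPi-Lp ate little of either, 0.3% phosphorus with 2.5% protein. The diets lasted 4 weeks by the methods of the study and 30 days by the sample labels. All Sham mice shared a single diet, so 5/6 Nx-HPi-Hp mice, like 5/6 Nx-LPi-Lp mice, differed from Sham in surgery and diet together.

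The endothelium is the single cell layer that lines a vessel, and in a whole aorta it is a minority of the tissue beside smooth muscle and the connective tissue around it. Pecam1 (CD31) and Cdh5 (VE-cadherin) encode adhesion proteins at the contacts between endothelial cells. Nos3 encodes the endothelial nitric oxide synthase, which relaxes smooth muscle, and Vwf encodes the clotting factor that captures platelets. Tie1 and Tek (Tie2) encode the receptor pair of the angiopoietin system, which maintains vessel stability. During inflammation, E-selectin (Sele) and P-selectin (Selp) let leukocytes roll on the vessel wall, and Vcam1 and Icam1 then hold them through integrins. Inflamed endothelium is known to raise the transcription of Sele, Vcam1 and Icam1 through NF-kB. Vcam1 and Icam1 are also made by smooth muscle cells, fibroblasts and macrophages, Selp and Pecam1 by platelets and their precursors, and Pecam1 by many leukocytes.

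RefSeq promoter windows of the GRCm38.p6 build, the build of the deposited coordinates, were at hand for 5 of the 10 genes, and those of 3 adhesion genes are shown because Sele and Selp were called in all comparisons of 5/6 Nx-HPi-Lp mice below and Icam1 in none. Vcam1, called in the same comparisons, was not among the 5. Each window runs from 250 bases before the RefSeq transcription start to 50 bases from it on, on the plus strand of chromosome 1 (Sele, chr1:164047984-164048283, and Selp, chr1:164115014-164115313) or 9 (Icam1, chr9:21015690-21015989). Capitals mark matches, on either strand, to AP-1-type letters (TGANTCA), ETS-type letters (AGGAAG, read CTTCCT on the other strand) and TATAAA.
Sele: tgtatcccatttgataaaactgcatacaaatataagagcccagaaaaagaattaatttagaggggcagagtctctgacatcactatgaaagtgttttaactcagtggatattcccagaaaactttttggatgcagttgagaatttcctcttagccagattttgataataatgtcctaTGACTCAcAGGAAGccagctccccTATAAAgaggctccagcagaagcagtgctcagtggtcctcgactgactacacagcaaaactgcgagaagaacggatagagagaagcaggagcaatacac
Selp: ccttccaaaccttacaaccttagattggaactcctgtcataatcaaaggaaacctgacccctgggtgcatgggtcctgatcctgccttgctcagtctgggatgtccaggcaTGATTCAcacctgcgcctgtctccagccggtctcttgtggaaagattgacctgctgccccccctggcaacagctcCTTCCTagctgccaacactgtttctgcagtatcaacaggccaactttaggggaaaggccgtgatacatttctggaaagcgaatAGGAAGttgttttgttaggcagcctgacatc
Icam1: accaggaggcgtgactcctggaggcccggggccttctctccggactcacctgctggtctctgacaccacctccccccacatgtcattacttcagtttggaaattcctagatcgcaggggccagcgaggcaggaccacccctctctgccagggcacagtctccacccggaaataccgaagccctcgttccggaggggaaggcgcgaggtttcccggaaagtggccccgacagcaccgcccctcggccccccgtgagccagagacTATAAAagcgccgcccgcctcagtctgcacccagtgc
The Sele window held TGACTCA at -73 to -67, AGGAAG at -65 to -60 and TATAAA at -49 to -44, counted from the transcription start. In the Selp window TGATTCA lay at -139 to -133 and the ETS-type letters at -64 to -59 and at 20 to 25. The Icam1 window held TATAAA at 14 to 19 from the RefSeq start. That start lies upstream of the Icam1 start in the deposited table, chr9:21015985, and the TATAAA letters lie upstream of the deposited start as well. Among all 32851 windows of this length, 7.81% held the AP-1-type letters, 35.4% the ETS-type letters and 13.6% TATAAA. The NF-kB consensus letters GGGRNNYYCC (R is A or G, Y is C or T, N is any base) were found in 8.46% of all windows. They had no exact match in any of the 5 windows. Sites that depart from these letters were not searched for, so this does not show that NF-kB sites are absent. The Tie1 window (chromosome 4, minus strand) held the ETS-type letters at 2 places, and the Tek window (chromosome 4, plus strand) held a GATA-type AGATAA, present in 11.2% of all windows.

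In the deposited table, on mm10, the contact genes are Pecam1 at chr11:106654217-106750628 (minus strand) and Cdh5 at chr8:104101625-104144511 (plus). Nos3 lies at chr5:24364810-24384474 (plus) and Vwf at chr6:125546774-125686679 (plus). Tie1 at chr4:118471191-118490061 (minus) and Tek at chr4:94739289-94874976 (plus) share chromosome 4. Vcam1 lies at chr3:116109949-116129688 (minus), Icam1 at chr9:21015985-21028817 (plus), Sele at chr1:164048234-164057677 (plus) and Selp at chr1:164115264-164150026 (plus). Sele and Selp are neighbours on mouse chromosome 1, with 57.6 kb from the end of Sele to the start of Selp. None of the exons of Pecam1, Cdh5, Vwf, Tie1, Tek and Sele overlap those of another gene in the GENCODE vM21 annotation. Exons of Nos3 share 25.2% of their bases with the antisense gene Gm15587 and 7.12% with Atg9b. Whether counting used the strand was not stated, so reads there could not be assigned with certainty. Gm15587 had a mean of at most 0.831 CPM (counts scaled to library size) in any group and Atg9b of at most 5.37. These low levels cannot settle the point, because shared reads may have been left out of both genes. Icam1 shares 11.7% of its exon bases with Gm47079, Selp 9.93% with Gm16548 and 4.21% with Gm16587, and Vcam1 0.688% with Gm43109. These partners stood at a mean of at most 0.296 CPM in any group, with the same limit.

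The total count per library was between 13659525 and 57276915. The 5/6 Nx-HPi-Lp aortas gave both the deepest libraries, mice 2 and 3 at 57276915 and 46499243 counts, and shallow ones, mice 1 and 4 at 15665005 and 15013203. Mitochondrially encoded genes took 4.18% to 6.34% of the counts in Sham libraries and 9.50% to 29.0% in the 3 nephrectomised groups, and leaving them out changed no call among the 10 genes. Summed levels of markers of other cell types also differed between the groups. In bulk RNA, cell numbers and RNA per cell cannot be told apart. The summed level of 8 smooth muscle markers was 21963 to 26082 CPM in Sham and 2268 to 5134 CPM in 5/6 Nx-HPi-Lp libraries, with 8 of 8 called lower. The sum of 8 macrophage markers was 229 to 351 CPM in Sham, 228 to 383 CPM in 5/6 Nx-LPi-Lp, 327 to 655 CPM in 5/6 Nx-HPi-Hp and 740 to 2586 CPM in 5/6 Nx-HPi-Lp. Adipocyte markers summed to 452 to 1130 CPM in Sham and to 1143 to 9176 CPM over the nephrectomised libraries, and markers of sympathetic neurons to 2.33 to 4.78 CPM in Sham and 22.8 to 1247 CPM in 5/6 Nx-HPi-Lp. No marker of these 4 lists had a group mean of 0. Heart muscle markers summed to 5458 CPM in 5/6 Nx-LPi-Lp mouse 2 and to 52.5 to 120 CPM in the rest of its group. Lung epithelium markers summed to 2.12 to 3.36 CPM in Sham and 13.5 to 76.6 CPM in 5/6 Nx-HPi-Lp libraries. For kidney tubule markers the sums were 1.49 to 2.58 CPM and 9.21 to 26.8 CPM. The part of all these tissues and cell types in the results on the 10 genes was not tested.

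All 10 genes were detected in every group, and the 6 identity genes had at least 384 counts in every library, so endothelial RNA was present in each aorta. Per length, in the FPKM that the authors deposited, Pecam1 stood highest in every group, with 68.4 ± 13.0 FPKM (SD, n = 4) in Sham and 47.8 ± 3.03 in 5/6 Nx-HPi-Lp mice. Its margin over Cdh5 was 68.4 against 14.3 FPKM in Sham and 47.8 against 38.8 FPKM in 5/6 Nx-HPi-Lp mice. Sele stood lowest in every group, at 0.208 ± 0.204 FPKM in Sham and 1.82 ± 1.14 FPKM in 5/6 Nx-HPi-Lp mice. Vcam1 was the highest adhesion gene per length, at 7.35 ± 1.48 FPKM in Sham and 25.7 ± 11.7 FPKM in 5/6 Nx-HPi-Lp mice.

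**Figure D1:**
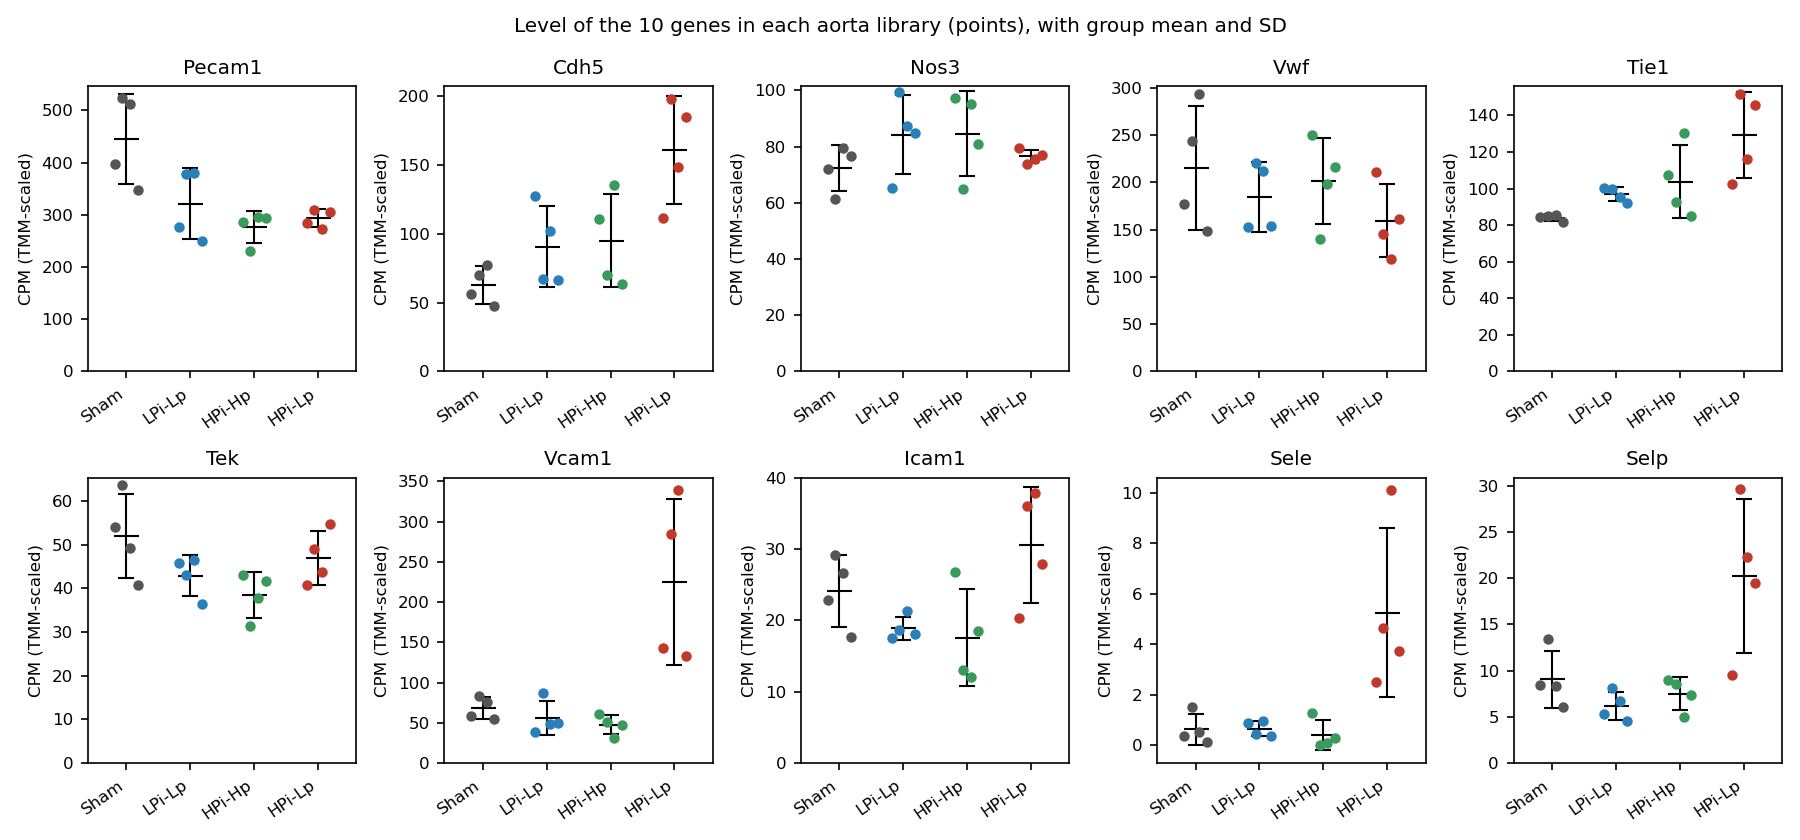
Level of each of the 10 genes in CPM scaled by TMM (vertical axes, linear from 0 or just below) in the 16 aorta libraries (points, 4 per group), with the group mean and SD as bars. Cdh5, Vcam1, Sele and Selp are highest among 5/6 Nx-HPi-Lp mice, Pecam1 among Sham mice, and Nos3 lies between 61.2 and 99.3 CPM throughout.

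The first comparison asked how the aortic levels of these genes differed between nephrectomised and Sham mice on the same high-phosphate, low-protein diet. Against Sham, 4 of the 10 genes were called higher in 5/6 Nx-HPi-Lp mice, Cdh5 among the identity genes and Vcam1, Sele and Selp among the adhesion genes, and 0 were called lower. To be called, a gene had to reach an edgeR adjusted p of 0.05 or less together with a log2 fold change of 1 or more in size. The share of all 16513 genes tested that was called higher was 15%, with 7.18% lower and 22.2% in either direction, so calls were common here. By the adjusted p alone, without the fold, 22.7% were higher and 20.2% lower. The median log2 fold change was 0.02 for the 6 identity genes and 1.5 for the 4 adhesion genes, beside 0.00 for all genes. In bulk tissue, fewer cells of a type and less RNA per cell cannot be told apart.

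The identity genes did not move together. Cdh5 was 56.0, 70.4, 77.4 and 47.4 CPM in the 4 Sham libraries and 112, 198, 149 and 185 CPM in the 4 5/6 Nx-HPi-Lp libraries. Every 5/6 Nx-HPi-Lp library was above every Sham library, and the mean was 2.56-fold higher (log2 fold change 1.41, SE 0.20, edgeR adjusted p = 0.000508). Pecam1, the other contact gene, was 397, 523, 512 and 348 CPM in Sham and 284, 310, 274 and 305 CPM in 5/6 Nx-HPi-Lp libraries. Here every Sham library was the higher one, and the difference of -0.55 on the log2 scale (SE 0.14, edgeR adjusted p = 0.0114) passed the p threshold and not the fold threshold. Tie1, the receptor without a well-established ligand of its own, was 84.2, 85.1, 85.7 and 81.4 CPM in Sham and 102, 152, 116 and 146 CPM in 5/6 Nx-HPi-Lp libraries. The groups did not overlap, and the log2 fold change of 0.67 (SE 0.13, edgeR adjusted p = 0.0025) was also below the fold threshold. With Vcam1 and Sele, 5 of the 10 genes had groups that did not overlap, beside 43% of all genes tested here.

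Nos3, Vwf and Tek were not called, and their groups overlapped. Nos3 ranged from 61.2 to 79.6 CPM in Sham and from 73.8 to 79.6 CPM in 5/6 Nx-HPi-Lp libraries, with a log2 fold change of 0.13 (SE 0.10, edgeR adjusted p = 0.332). Tek, the angiopoietin receptor, had a log2 fold change of -0.09 (SE 0.15, edgeR adjusted p = 0.646). Vwf was 149 to 293 CPM in Sham and 120 to 211 CPM in 5/6 Nx-HPi-Lp libraries, a log2 fold change of -0.38 (SE 0.23, edgeR adjusted p = 0.221). For these genes the spread between mice was as large as the difference between the groups.

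Because Cdh5 and Pecam1 moved apart, their counts were also compared within each library, which needs no scaling between libraries. Per 100 counts of Pecam1, Cdh5 had 14.1, 13.4, 15.1 and 13.6 counts in the Sham libraries and 39.2, 63.9, 54.4 and 60.7 in the 5/6 Nx-HPi-Lp libraries. The Sham libraries were nearly alike, and the mean of the 5/6 Nx-HPi-Lp libraries was 3.87 times theirs. The 5/6 Nx-HPi-Hp libraries had 34.2 ± 10.4 (SD, n = 4) and the 5/6 Nx-LPi-Lp libraries 29.3 ± 11.9 Cdh5 counts per 100 Pecam1 counts, with a lowest library of 17.8, so that all 12 nephrectomised libraries were above the highest Sham library at 15.1. Tie1 per 100 Pecam1 counts was 19.4 ± 3.48 in Sham, 31.2 ± 6.34 in 5/6 Nx-LPi-Lp, 37.7 ± 6.42 in 5/6 Nx-HPi-Hp and 43.8 ± 5.90 in 5/6 Nx-HPi-Lp mice. These ratios were chosen after the levels had been seen and are given without a test.

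Among the adhesion genes, Vcam1 and Sele had larger log2 fold changes from Sham than any identity gene, while Selp was below Cdh5 and Icam1 was not called. Vcam1 was 58.3, 83.5, 76.2 and 54.4 CPM in Sham and 142, 285, 339 and 133 CPM in 5/6 Nx-HPi-Lp libraries. The groups did not overlap and the mean was 3.30-fold higher (log2 fold change 1.78, SE 0.31, edgeR adjusted p = 0.00135). Sele was 0.347, 1.53, 0.541 and 0.119 CPM in Sham, which is 9, 35, 12 and 3 counts, and 2.52, 4.66, 10.1 and 3.74 CPM in 5/6 Nx-HPi-Lp libraries, which is 40, 267, 457 and 58 counts. It was 8.28-fold higher by the means, without overlap (log2 fold change 3.11, SE 0.71, edgeR adjusted p = 0.00596). Few reads lie behind the Sham values, so the size of this fold is the least certain among the called genes.

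Selp was 8.48, 13.4, 8.30 and 6.05 CPM in Sham and 9.52, 29.7, 22.3 and 19.5 CPM in 5/6 Nx-HPi-Lp libraries. The lowest 5/6 Nx-HPi-Lp library fell inside the Sham range, while the other 3 lay above it (log2 fold change 1.22, SE 0.34, edgeR adjusted p = 0.0154). The Selp call was lost without Sham mouse 4 (log2 fold change 1.05, edgeR adjusted p = 0.0514) or without 5/6 Nx-HPi-Lp mouse 2 (0.99, edgeR adjusted p = 0.0345, under the fold threshold). Of 7 platelet markers 6 were tested and 3 called higher. The summed level of the 7 was 19.4 to 37.8 CPM in Sham and 46.8 to 90.6 CPM in 5/6 Nx-HPi-Lp libraries. No marker had a group mean of 0, and the part of platelets in the Selp result was not tested. Icam1 was 22.9, 29.2, 26.7 and 17.7 CPM in Sham and 20.4, 36.1, 38.0 and 27.9 CPM in 5/6 Nx-HPi-Lp libraries. These overlapped, and the log2 fold change of 0.40 (SE 0.21) did not pass (edgeR adjusted p = 0.153).

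**Figure D2:**
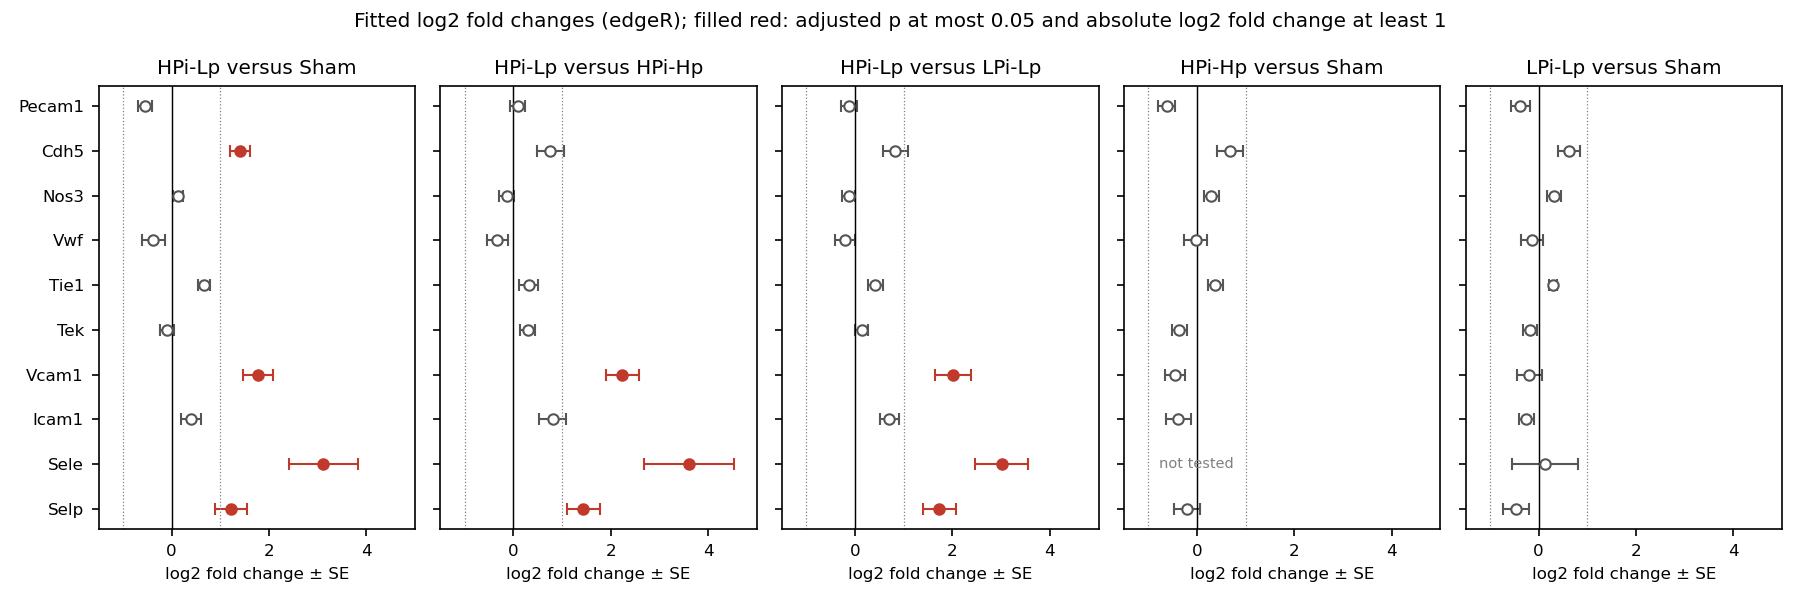
Fitted log2 fold change with SE (horizontal axes) of each gene in 5 comparisons from edgeR, with filled red points for calls and dotted lines at the fold threshold. Vcam1, Sele and Selp are called in each of the 3 comparisons of 5/6 Nx-HPi-Lp mice, from 1.22 to 3.61, Cdh5 in that with Sham only, and no gene in the other 2 comparisons.

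The next comparisons kept the nephrectomy and changed the protein level (5/6 Nx-HPi-Hp) or the phosphorus level (5/6 Nx-LPi-Lp) of the diet. By the diet compositions of the study, starch and some other ingredients changed along with these levels. In each of them 3 of the 10 genes, Vcam1, Sele and Selp, were called higher in 5/6 Nx-HPi-Lp mice and 0 lower. Against 5/6 Nx-HPi-Hp, 5.01% of all 16198 genes tested were called higher and 3.11% lower (8.12% together), and by the adjusted p alone 7.09% were higher and 5.95% lower. Against 5/6 Nx-LPi-Lp, 7.9% of 16253 genes were called higher and 3.98% lower (11.9% together), and by the adjusted p alone 11.1% were higher and 8.96% lower. The median log2 fold change of the 4 adhesion genes was 1.84 and 1.87, beside 0.01 and -0.02 for all genes, and that of the 6 identity genes was 0.19 and 0.00. The same 4 libraries of 5/6 Nx-HPi-Lp mice enter all 3 comparisons, so the results are not independent of each other.

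Vcam1 was 61.0, 51.0, 31.6 and 47.3 CPM in 5/6 Nx-HPi-Hp and 38.0, 87.0, 48.3 and 50.1 CPM in 5/6 Nx-LPi-Lp libraries. All of these were below the lowest 5/6 Nx-HPi-Lp library at 133 CPM. Its log2 fold change was 2.24 (SE 0.34, edgeR adjusted p = 0.00514) against 5/6 Nx-HPi-Hp and 2.02 (SE 0.37, edgeR adjusted p = 0.00735) against 5/6 Nx-LPi-Lp mice.

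Selp was 9.04, 8.57, 5.02 and 7.33 CPM in 5/6 Nx-HPi-Hp and 5.31, 8.10, 6.70 and 4.57 CPM in 5/6 Nx-LPi-Lp libraries. No library of either group reached the lowest 5/6 Nx-HPi-Lp library at 9.52 CPM, although mouse 1 of the 5/6 Nx-HPi-Hp group came close. The log2 fold change was 1.44 (SE 0.33, edgeR adjusted p = 0.0228) against 5/6 Nx-HPi-Hp and 1.73 (SE 0.34, edgeR adjusted p = 0.00956) against 5/6 Nx-LPi-Lp mice.

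Sele was 1.29, 0, 0.0750 and 0.273 CPM in 5/6 Nx-HPi-Hp libraries, from 24, 0, 1 and 5 counts, and 0.867, 0.439, 0.947 and 0.381 CPM in 5/6 Nx-LPi-Lp libraries, from 16, 7, 13 and 8 counts. The library at 0 allows up to 3 counts, or 0.245 CPM. All 8 were below the lowest 5/6 Nx-HPi-Lp library at 2.52 CPM, and the log2 fold change was 3.61 (SE 0.93, edgeR adjusted p = 0.0336) against 5/6 Nx-HPi-Hp and 3.01 (SE 0.54, edgeR adjusted p = 0.00685) against 5/6 Nx-LPi-Lp mice. Besides these 3 genes, only Tie1 against 5/6 Nx-LPi-Lp had groups without overlap, which made up 20.4% of all genes against 5/6 Nx-HPi-Hp and 24.7% against 5/6 Nx-LPi-Lp.

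Against 5/6 Nx-HPi-Hp the Sele and Selp calls depended on single libraries. Leaving out 5/6 Nx-HPi-Lp mouse 2, 3 or 4, or 5/6 Nx-HPi-Hp mouse 2 or 3, ended both calls, with 1 gene, Vcam1, still called. The edgeR adjusted p then lay between 0.0558 and 0.0916 for Sele and between 0.0548 and 0.0588 for Selp. Calls were fewer among all genes in these fits as well. Between 418 and 615 of 16422 to 16796 genes were called higher, against 811 of 16198 with all 8 libraries. With each library left out in turn, the log2 fold change was 3.08 to 5.31 for Sele and 1.19 to 1.67 for Selp. Without 5/6 Nx-HPi-Hp mouse 4 Sele alone was lost (edgeR adjusted p = 0.0611). The same calls against 5/6 Nx-LPi-Lp held with each library left out.

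Icam1 was 26.8, 13.0, 12.1 and 18.6 CPM in 5/6 Nx-HPi-Hp and 17.6, 18.7, 21.3 and 18.1 CPM in 5/6 Nx-LPi-Lp libraries. Its mean of 30.6 ± 8.09 CPM (SD, n = 4) in 5/6 Nx-HPi-Lp mice was the highest of the 4 groups, but the ranges overlapped. The log2 fold change was 0.81 (SE 0.28, edgeR adjusted p = 0.0846) against 5/6 Nx-HPi-Hp and 0.70 (SE 0.20, edgeR adjusted p = 0.0363, under the fold threshold) against 5/6 Nx-LPi-Lp mice. Among 5/6 Nx-HPi-Hp mice, mouse 1 had the highest Icam1 level, and without it Icam1 was called against that group (log2 fold change 1.07, edgeR adjusted p = 0.0396).

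Among the identity genes, Cdh5 came nearest to a call. It was 111, 70.3, 136 and 63.9 CPM in 5/6 Nx-HPi-Hp and 127, 67.5, 102 and 66.2 CPM in 5/6 Nx-LPi-Lp libraries. Both groups spread from the Sham range up into the 5/6 Nx-HPi-Lp range. The log2 fold change was 0.76 (SE 0.28, edgeR adjusted p = 0.095) against 5/6 Nx-HPi-Hp and 0.83 (SE 0.26, edgeR adjusted p = 0.0507) against 5/6 Nx-LPi-Lp mice. It was called against 5/6 Nx-LPi-Lp without mouse 1 of that group (log2 fold change 1.02, edgeR adjusted p = 0.0278). For Tie1 the log2 fold change was 0.32 (edgeR adjusted p = 0.292) and 0.42 (edgeR adjusted p = 0.0742), and for Tek 0.30 and 0.13. Pecam1, Nos3 and Vwf differed by -0.33 to 0.09 on the log2 scale in these comparisons, with edgeR adjusted p from 0.351 to 0.718.

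The remaining comparisons placed the other 2 nephrectomised groups. Against Sham none of the 10 genes was called in 5/6 Nx-HPi-Hp mice (9.41% of 15882 genes called higher, 2.75% lower, 12.2% together) or in 5/6 Nx-LPi-Lp mice (8.79% of 16071 higher, 2.08% lower, 10.9% together). By the adjusted p alone these shares were 17.5% higher and 13.9% lower in the first and 17.3% higher and 14.5% lower in the second, and groups without overlap made up 33.8% and 35.6% of all genes. Pecam1 was 286, 230, 296 and 294 CPM in 5/6 Nx-HPi-Hp libraries, all below Sham (log2 fold change -0.61, SE 0.17, edgeR adjusted p = 0.0265, under the fold threshold). In 5/6 Nx-LPi-Lp libraries Pecam1 was 277, 379, 379 and 249 CPM, overlapping Sham (-0.38, SE 0.19, edgeR adjusted p = 0.167). Tie1 was 100.4, 99.5, 95.2 and 92.3 CPM in 5/6 Nx-LPi-Lp libraries, all above Sham by a small amount (log2 fold change 0.30, SE 0.08, edgeR adjusted p = 0.0202).

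Cdh5 had log2 fold changes of 0.68 (SE 0.26, edgeR adjusted p = 0.0699) in 5/6 Nx-HPi-Hp and 0.62 (SE 0.23, edgeR adjusted p = 0.0647) in 5/6 Nx-LPi-Lp mice over Sham. By their medians the adhesion genes leaned the other way, at -0.38 (3 tested) and -0.22 (4 tested), with no edgeR adjusted p under 0.119. Sele alone leaned up, with a log2 fold change of 0.14 (SE 0.68) in 5/6 Nx-LPi-Lp mice. Sele had too few counts to be tested between 5/6 Nx-HPi-Hp and Sham or 5/6 Nx-LPi-Lp. When 5/6 Nx-HPi-Hp was set against 5/6 Nx-LPi-Lp, 0 of the 9 genes tested were called and 0 had groups without overlap, beside 0% and 5.15% of all 15850 genes. In edgeR 1420 of those genes had an unadjusted p under 0.05, and DESeq2 called 31 genes higher and 48 lower.

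The order of the group means was 5/6 Nx-HPi-Lp, Sham, 5/6 Nx-LPi-Lp and 5/6 Nx-HPi-Hp for Vcam1 and Icam1. For Selp it was 5/6 Nx-HPi-Lp, Sham, 5/6 Nx-HPi-Hp and then 5/6 Nx-LPi-Lp, and for Sele 5/6 Nx-HPi-Lp, 5/6 Nx-LPi-Lp, Sham and 5/6 Nx-HPi-Hp. For Vcam1, Sele and Selp the step below 5/6 Nx-HPi-Lp mice was called and the other steps tested were not, while the step from Sham to 5/6 Nx-HPi-Hp was not tested for Sele. For Icam1 no step was called. For Cdh5 and Tie1 the order was 5/6 Nx-HPi-Lp, 5/6 Nx-HPi-Hp, 5/6 Nx-LPi-Lp and Sham, with neighbours that did not differ by both thresholds. For Pecam1 it was Sham, 5/6 Nx-LPi-Lp, 5/6 Nx-HPi-Lp and 5/6 Nx-HPi-Hp.

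The adhesion genes were also counted against the identity genes within each library, and the difference from Sham depended on which identity gene was the denominator. Per 100 Cdh5 counts, Vcam1 had 109 ± 9.28 counts (SD, n = 4) in Sham and 143 ± 64.7 in 5/6 Nx-HPi-Lp libraries, and Selp 14.4 ± 3.58 and 12.3 ± 3.25. These differences were smaller than the spread. Icam1 had 38.5 ± 3.29 and 19.3 ± 4.42 per 100 Cdh5 counts, lower in every 5/6 Nx-HPi-Lp library than in any Sham library. Sele had 0.935 ± 0.848 and 3.36 ± 2.29, with 1 Sham library, at 2.17, above the lowest 5/6 Nx-HPi-Lp library at 2.02.

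Per 100 Pecam1 counts, every adhesion gene was higher in all 4 5/6 Nx-HPi-Lp libraries than in any Sham library. Vcam1 had 15.3 ± 0.598 counts in Sham and 77.4 ± 37.7 in 5/6 Nx-HPi-Lp libraries, and Selp 2.02 ± 0.427 and 6.86 ± 2.68. For Icam1 the values were 5.41 ± 0.319 and 10.5 ± 2.93, and for Sele 0.130 ± 0.112 and 1.83 ± 1.27. Per 100 Nos3 counts, Vcam1 went from 95.9 ± 28.8 to 297 ± 142, Selp from 13.0 ± 6.16 to 26.7 ± 11.7 and Icam1 from 34.0 ± 10.2 to 40.3 ± 11.7.

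Against the 2 other nephrectomised groups the Vcam1 ratio leaned one way under each denominator. Per 100 Cdh5 counts it was 56.3 ± 23.6 in 5/6 Nx-HPi-Hp and 70.5 ± 43.4 in 5/6 Nx-LPi-Lp libraries, below the 143 of the 5/6 Nx-HPi-Lp group. Per 100 Pecam1 counts it was 17.6 ± 5.31 and 17.4 ± 4.96, close to the Sham value of 15.3. Icam1 per 100 Cdh5 counts, at 20.2 ± 8.68 and 22.4 ± 6.56, was near the 19.3 of the 5/6 Nx-HPi-Lp group.

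**Figure D3:**
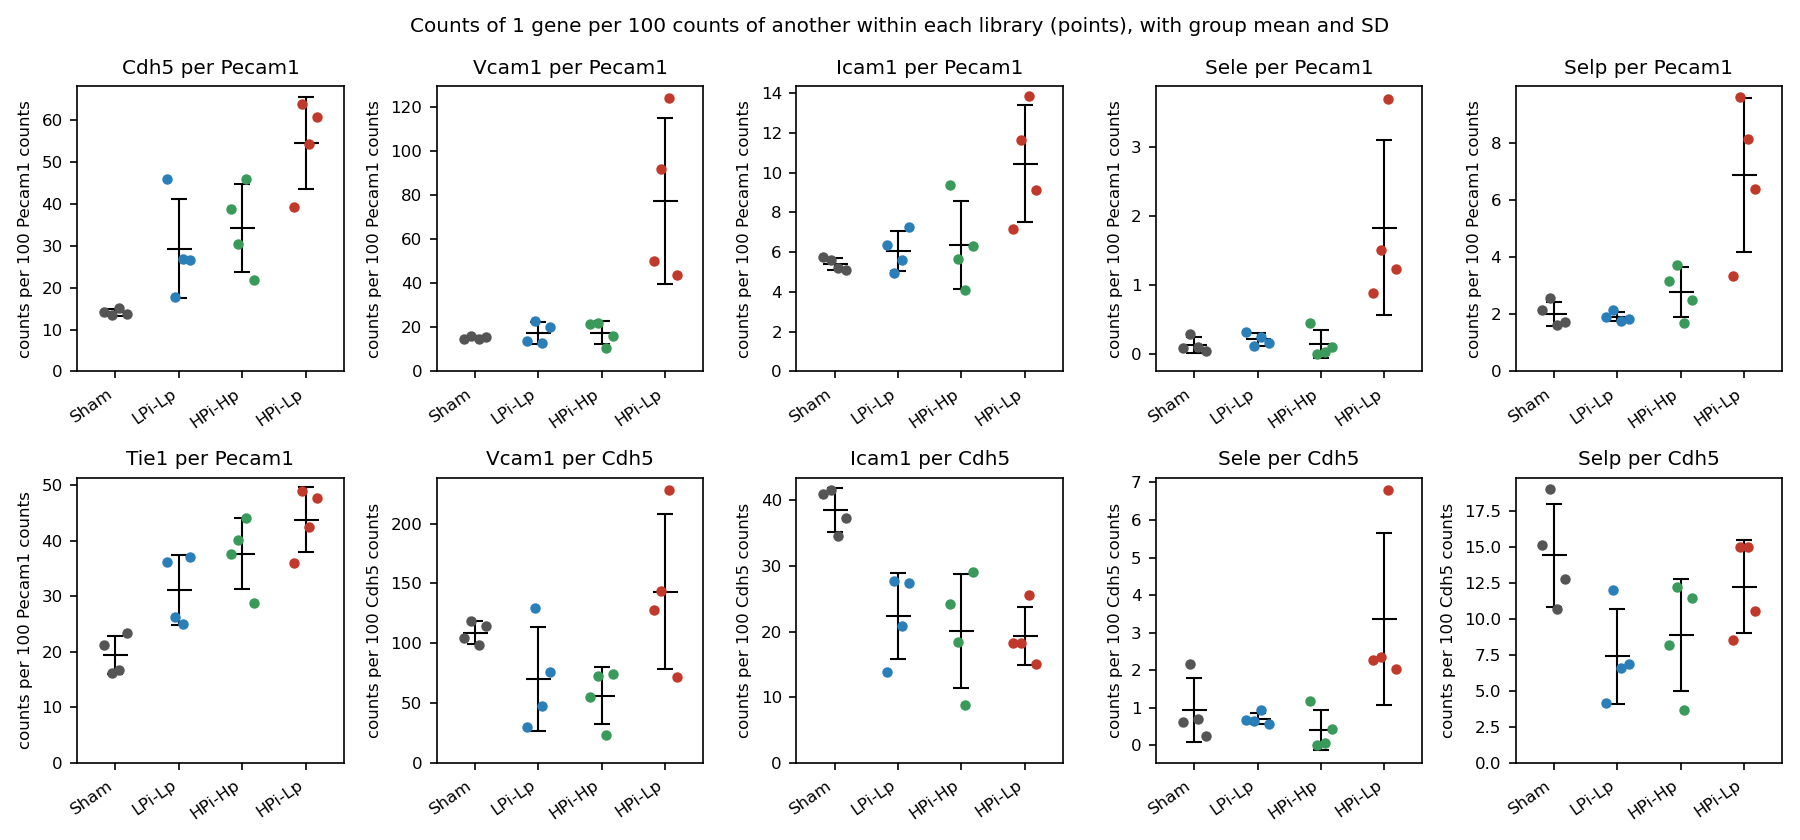
Counts of a gene per 100 counts of Pecam1 (top row and bottom left) or of Cdh5 (rest of the bottom row) in each library (points, 4 per group), with the group mean and SD. Cdh5 per 100 Pecam1 counts is 13.4 to 15.1 in Sham and 17.8 to 63.9 in the other libraries, and Icam1 per 100 Cdh5 counts is highest in Sham.

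Over the 16 libraries the 4 adhesion genes rose and fell with each other. The Pearson r of log2(CPM + 1) lay between 0.80 and 0.90 in their 6 pairs, and between 0.58 and 0.85 after each group mean was taken out. The 15 pairs of identity genes ranged from -0.36 to 0.92 with a median of 0.06, and within groups from -0.05 to 0.80 with a median of 0.38. Cdh5 and Tie1 had the highest r among them, 0.92 over all libraries and 0.78 within groups. Pecam1 went with Tek (0.73 and 0.67) and Vwf (0.63 and 0.80), and its r with Cdh5 was -0.30 over all libraries but 0.38 within groups. The libraries fall into groups and share their scaling, so these values are descriptions without a test. Among the 5/6 Nx-HPi-Lp mice, mice 2 and 3 had the highest Vcam1, Icam1, Sele and Selp levels, and they were also the 2 deepest libraries and the 2 with the highest macrophage sums, 2586 and 1575 CPM, against 740 and 1374 CPM in mice 1 and 4. The part of depth or macrophage content was not tested.

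Among the genes whose pattern was most like that of Cdh5 over the 16 libraries, of 17443 genes, were B230208H11Rik, Prkch, Steap4 and Il6ra, with r from 0.94 to 0.95 and from 0.85 to 0.88 within groups. For Vcam1 they were Osmr, Lum, Mt2, Knstrn and Lgmn, with r from 0.93 to 0.96 and from 0.64 to 0.84 within groups. Lum encodes a matrix proteoglycan of fibroblasts and Osmr the oncostatin M receptor subunit, and neither is a gene particular to endothelium. The sum of 7 fibroblast markers, Lum among them, was 3019 to 4213 CPM in Sham and 4409 to 19470 CPM in 5/6 Nx-HPi-Lp libraries, and its part in the Vcam1 level was not tested.

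Genes around the 10 were read from lists of the same pathways and cell types, beside the 15% of all genes called higher and 7.18% called lower than in Sham. In the angiopoietin and VEGF list 8 of 14 genes were called higher and 1 lower in 5/6 Nx-HPi-Lp than in Sham mice, with a median log2 fold change of 1.06. Nrp2, a co-receptor for VEGF, had the highest value (2.32, edgeR adjusted p = 0.000101), and Angpt2, a Tek ligand that destabilizes vessels, was the gene called lower (-1.07, edgeR adjusted p = 0.00448). Angpt2 was also lower than Sham by 1.07 in 5/6 Nx-HPi-Hp and 1.11 in 5/6 Nx-LPi-Lp mice, where 6 and 5 of the list were called higher and 1 lower. Against the other nephrectomised groups the list had 0 higher and 1 lower (Vegfb, -1.21, against 5/6 Nx-HPi-Hp) and 1 of each (Pgf 1.18 and Vegfb -1.08, against 5/6 Nx-LPi-Lp).

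Of 18 other endothelial surface genes 9 were called higher than in Sham and 0 lower, led by Robo4 at 2.57 (edgeR adjusted p = 6.62e-05), a guidance receptor of endothelium. Among 12 junction genes, the neighbours of Cdh5 and Pecam1 at cell contacts, 0 were called higher and 2 lower, Jam3 at -1.82 (edgeR adjusted p = 4.57e-05) and Mcam. Mcam is also made by smooth muscle, whose 8 markers were called lower in the same comparison, and their part in the Mcam value was not tested. The transcription factor and hemostasis lists had shares called higher near that of all genes. Of 12 endothelial transcription factors 2 were higher, among them Lyl1 at 1.63. Of 11 tested genes of the hemostasis list 2 were higher, among them Angptl4 at 2.35, and 1 lower, F3 (tissue factor) at -1.37. Angptl4 is not a clotting gene, and neither it nor F3 is particular to endothelium. In the same comparison 6 of 7 adipocyte markers were called higher. The part of adipocytes and smooth muscle in these 2 values was not tested.

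The nitric oxide list, around Nos3, had 5 of 15 tested genes called higher and 4 lower than in Sham. The highest was Arg1, which competes for arginine and is abundant in some macrophages (6.44, edgeR adjusted p = 7.05e-05). Its mean was 26.5 ± 17.8 CPM (SD, n = 4) against 0.319 ± 0.197 CPM in Sham, so the size of this fold rests on a low Sham level. The lowest was Gucy1b1, a subunit of the nitric oxide receptor of smooth muscle (-2.51, edgeR adjusted p = 0.000233). Nos3 itself had the value of 0.13 given above.

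Lists of endothelial subtype markers were read next. Not all of these genes are particular to endothelium, and the part of other cells of the aorta in them was not tested. Of 10 capillary and venous markers 8 were called higher than in Sham in 5/6 Nx-HPi-Lp mice, with a median log2 fold change of 2.81 and Aplnr highest at 4.60 (edgeR adjusted p = 0.00183). Against Sham, 8 of 10 were also called higher in 5/6 Nx-HPi-Hp and 7 of 10 in 5/6 Nx-LPi-Lp mice, with medians of 2.20 and 1.86. Their summed level was 587 to 1185 CPM in Sham and 1054 to 5972 CPM over the 12 nephrectomised libraries. Of 8 arterial markers 2 were higher, Dll4 at 1.57 the highest, and 1 lower, Efnb2 at -1.28, with a median of -0.14. In 5/6 Nx-HPi-Hp mice 1 arterial marker was higher than in Sham and 0 lower (median 0.08), and in 5/6 Nx-LPi-Lp mice 0 were called in either direction (median 0.15). The arterial sum, in which abundant markers weigh most, was 312 to 361 CPM in Sham and 242 to 309 CPM in the nephrectomised libraries. Cd36 and Fabp4 of the capillary list are also adipocyte genes, and 6 of 7 adipocyte markers were called higher in 5/6 Nx-HPi-Lp and 7 of 7 in each of the other 2 nephrectomised groups, whose part in the list was not tested. Bmx, an arterial kinase, was the gene of that list called lower against 5/6 Nx-HPi-Hp (-1.28) and against 5/6 Nx-LPi-Lp mice (-1.26). The lymphatic list had 3 of 7 higher than in Sham, with Pdpn at 1.81 the highest.

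**Figure D4:**
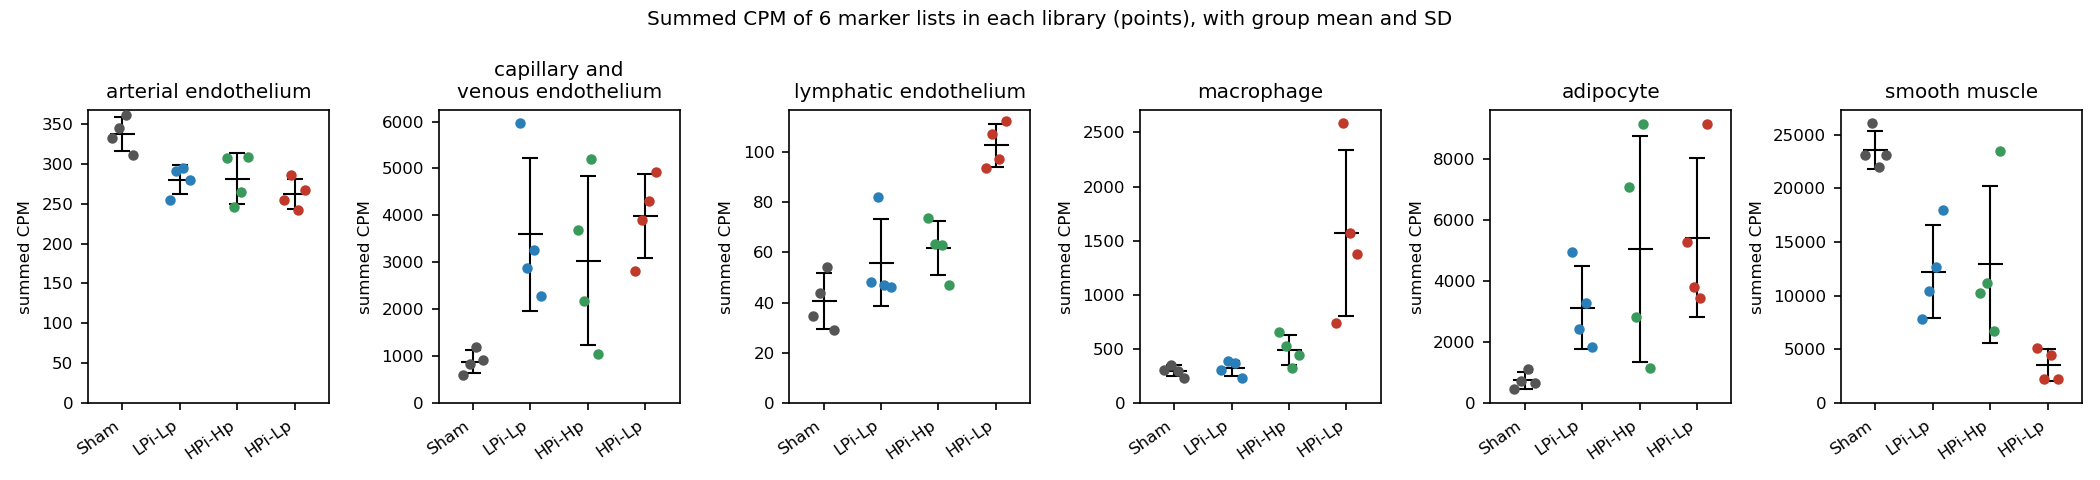
Summed CPM of the markers of 3 endothelial subtypes and of macrophages, adipocytes and smooth muscle (vertical axes, linear from 0) in each library (points, 4 per group), with the group mean and SD. The capillary and venous sum is higher in most nephrectomised libraries than in Sham and the arterial sum lower, although the median arterial marker differed from Sham by only -0.14 to 0.15 on the log2 scale, and macrophage markers are highest in 5/6 Nx-HPi-Lp mice.

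Several leukocyte partners of the adhesion genes were higher too. All 8 macrophage markers and 3 of 3 tested neutrophil markers were called higher than in Sham along with them. Of 7 T cell markers 2 were called lower and 0 higher. The part of these leukocytes in the lists was not tested. Of 12 counter-receptors 7 were called higher and 1 lower than in Sham, 5 higher and 0 lower than in 5/6 Nx-HPi-Hp, and 6 higher and 0 lower than in 5/6 Nx-LPi-Lp mice. Itgax, the alpha chain of a leukocyte integrin, was highest against Sham (3.58, edgeR adjusted p = 0.000303), and Itgam, the alpha chain of the Icam1 receptor Mac-1, against the other groups (2.89 and 3.26). Itga4, the alpha chain of the Vcam1 receptor VLA-4, was not called against Sham (log2 fold change 0.25, SE 0.32, edgeR adjusted p = 0.558), and Itgb1, its beta chain and a gene of smooth muscle as well, was the gene called lower (-1.17). Itga4 was chosen after its value was seen. Selplg, the selectin ligand PSGL-1, chosen likewise, was called against Sham (1.97, edgeR adjusted p = 0.0168) and not against 5/6 Nx-HPi-Hp (1.47, edgeR adjusted p = 0.102).

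Of 6 tested among the other adhesion ligands 3 were higher than in Sham, 2 than in 5/6 Nx-HPi-Hp and 3 than in 5/6 Nx-LPi-Lp mice. Ackr1, the venular chemokine carrier, led the latter lists at 1.65 and 2.51. Madcam1, a mucosal addressin, led the first, with a fitted 4.30 that rests on means of 0.857 against 0.0393 CPM and is no bound. In the list of NF-kB activators and targets 9 of 18 tested genes were called higher than in Sham, 6 than in 5/6 Nx-HPi-Hp and 8 than in 5/6 Nx-LPi-Lp mice, with 0 lower in each. Il1b, a cytokine that activates NF-kB and a macrophage product, was highest in all 3 (5.51, 3.87 and 5.24). The list had 2 genes called higher in 5/6 Nx-HPi-Hp than in Sham and 0 in 5/6 Nx-LPi-Lp mice, beside 0 adhesion genes in either. Of 14 genes linked to a change of endothelium toward mesenchyme 4 were higher than in Sham, led by the repressor Snai1 at 2.73, and 1 was lower, Vim at -1.18, which the other cells of the aorta express as well.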

How the data were processed

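RNA from 16 mouse aortas was sequenced as 1 library per mouse. Per the labels and the methods of the study, the authors aligned the reads to mm10 with HISAT2 2.0.5, counted them per gene with featureCounts 1.5.0-p3 and deposited whole-number counts for 54532 genes and FPKM (scaled to both the length of the gene and the size of the library). Strand settings and reads matching several genes were not given in the sources used here. Deposited FPKM were used only to compare levels between genes.

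Tests on the counts used edgeR 4.0.16 under R 4.3.3 (filterByExpr, TMM, quasi-likelihood test, two-sided, Benjamini-Hochberg over all genes tested) on the 8 libraries of each of 6 comparisons, and a call needed an adjusted p of 0.05 or less together with a log2 fold change of 1 or more in size. CPM use TMM factors over the 16 libraries. Library totals, 13659525 to 57276915, limit Sele most, and counting limits at 0 use 3 counts and cover counting error only. Groups and replicate numbers come from the labels, and replicate libraries were no copies (lowest chi-square per gene 20.0). p-values measure the spread between the mice sequenced.

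Genes were named by a rule: the 10 genes, from each pathway or subtype list the called gene with the highest and the lowest change in the 3 comparisons that involve 5/6 Nx-HPi-Lp, and the 5 genes most like Cdh5 and Vcam1, of which 1 is not reported here. Where others are named, such as Itga4 and Selplg, they were chosen after their values were seen. The 10 genes, the lists and the tests were chosen with earlier results of these data known. Alternatives were RLE scaling, DESeq2 1.42.0, 10 or more counts required in each library, testing without any count filter, a joint fit of all 16 libraries, a replicate block, no mitochondrially encoded genes, no fold threshold and each library left out in turn. Ratios to Pecam1 and Nos3 counts were added after the data were seen. Other tools were limma 3.58.1, Python 3.11.15 and matplotlib 3.10.9. The tests were tested on simulated data.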

Additional observations from a re-analysis of the deposited data

Results flagged for a closer look

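In a check of every gene and group for a library far from the other 3, 40 groups of 4 libraries were tested, and chance alone would mark about 1 in 20 of them. A single value stood apart. Pecam1 in 5/6 Nx-HPi-Hp mouse 2 was 230 CPM, while the other 3 libraries of the group lay between 286 and 296 CPM, a gap of 0.849 of the whole range and above Dixon's critical value for 4 samples. Without this library the log2 fold change of Pecam1 in 5/6 Nx-HPi-Lp against 5/6 Nx-HPi-Hp mice was -0.0016 (edgeR adjusted p = 0.995).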

How the results depend on the processing

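Vcam1 was called higher in 5/6 Nx-HPi-Lp mice in all 3 comparisons under every alternative run, with each library left out giving 1.53 to 1.98 on the log2 scale against Sham, 1.96 to 2.43 against 5/6 Nx-HPi-Hp and 1.76 to 2.29 against 5/6 Nx-LPi-Lp. Cdh5 was called against Sham with each library left out (1.28 to 1.56). The number of the 10 genes called higher was 3 to 5 against Sham and 2 to 4 against 5/6 Nx-LPi-Lp. Against 5/6 Nx-HPi-Hp it was 1 with the replicate block, where Sele (4.21, edgeR adjusted p = 0.1004) and Selp (1.37, edgeR adjusted p = 0.0873) were lost, and 1 to 4 with each library left out. With that block 255 of all 16198 genes tested were called higher, against 811 without it. The replicate numbers did not pair the mice (4 of 24 same-numbered pairs with r over 0.1, median -0.02). Without the fold threshold, 1 gene (Pecam1) was lower than Sham in 5/6 Nx-HPi-Lp and 1 in 5/6 Nx-HPi-Hp mice, and 1 (Tie1) higher in 5/6 Nx-LPi-Lp mice. Sele could not be fitted with 10 counts required in every library.

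The within-library ratios moved with the denominator. As log2 ratios of group means, Vcam1 against Sham was 0.39 per Cdh5 count, 2.34 per Pecam1 and 1.63 per Nos3. Against 5/6 Nx-HPi-Hp it was 1.34, 2.14 and 2.35, and against 5/6 Nx-LPi-Lp 1.02, 2.16 and 2.19. In the same order of denominators and groups, Icam1 was -1.0, 0.95 and 0.24, then -0.07, 0.72 and 0.95, then -0.22, 0.79 and 0.82. Sele was 1.84, 3.81 and 2.86, then 3.02, 3.68 and 3.99, then 2.24, 3.14 and 3.07. Selp was -0.24, 1.77 and 1.04, then 0.46, 1.31 and 1.54, then 0.73, 1.84 and 1.87. The cause was not tested.

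Signs turned only among changes that were not called. Nos3 in 5/6 Nx-HPi-Hp against 5/6 Nx-LPi-Lp was -0.0044 and became 0.00018 with RLE scaling and 0.0027 with 10 counts required. With each library left out, that comparison ran from -0.17 to 0.27 for Cdh5, -0.39 to 0.022 for Icam1, -0.11 to 0.10 for Nos3, -0.044 to 0.19 for Tie1, -0.38 to 0.061 for Vcam1 and -0.0085 to 0.24 for Vwf. Pecam1 in 5/6 Nx-HPi-Lp against 5/6 Nx-HPi-Hp ran from -0.0016 to 0.12. Against Sham, Tek in 5/6 Nx-HPi-Lp ran from -0.21 to 0.00024, Selp in 5/6 Nx-HPi-Hp from -0.36 to 0.038 and Vwf from -0.19 to 0.14, and in 5/6 Nx-LPi-Lp mice Vwf ran from -0.27 to 0.050 and Sele from -0.21 to 1.05. Depth limited Sele most, with 0 to 35 counts per library outside the 5/6 Nx-HPi-Lp group.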
